A study of Mus musculus with 15 samples.

Results

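The 10 genes described here encode proteins of blood plasma: the fetuins Ahsg and Fetub, the serpins Serpina3k, Serpina1c and Serpina1d, the acute-phase and scavenger proteins Orm2, Hp and Hpx, and the carrier proteins Alb and Ambp. They are 10 of 20659 genes named on the array and 10 of 16032 genes tested. They were chosen by their measured difference between the diets in these same kidneys, so every diet value below describes them and tests nothing. Each gene was found through the RefSeq accession of its probes; 9 had 1 probe and Serpina1d had 2, of which the brighter is used. All 10 had a probe well above background on at least 3 arrays, the condition for being tested.

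RNA of whole frozen kidneys from male C57/BJ mice was measured on 1-colour arrays, 1 per mouse, in 4 groups. They were high-fat diet with uninephrectomy (HFD-UNX, 4 arrays), high-fat diet with sham surgery (HFD-sham, 3), low-fat control chow with uninephrectomy (LFD-UNX, 4) and low-fat control chow with sham surgery (LFD-sham, 4). Surgery was done at 6 weeks of age and kidneys were taken 20 weeks later; uninephrectomy removed the left kidney, so UNX mice kept 1 kidney, and the manipulated kidney of sham mice stayed in place. The labels name 6 mice per group, of which those hybridised are used here, and which kidney of a sham mouse was taken is not given in the sources used here.

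Most plasma proteins are made by hepatocytes and secreted into blood, and several are filtered by the kidney and taken back up by proximal tubule cells. Acute-phase genes such as those of haptoglobin and orosomucoid are switched on by interleukin-6 through STAT3 and C/EBP factors, also in fat tissue, while liver-type transcription rests on factors such as HNF4 and C/EBP. The kidney tubule shares several of these factors, and some plasma protein genes are transcribed in the tubule itself.

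The promoters of 6 members are printed because they stand for the patterns that follow: Ahsg and Alb for the genes that moved together, Fetub for the gene that parted from its fetuin neighbour, Orm2 for the acute-phase pair, and Serpina1c with Serpina1d for near-identical copies. Sequences are the 250 bases before the annotated start, 5′ to 3′ on the strand of the gene, from RefSeq on GRCm38.p6. They lie at chr16:22891765-22892014 (plus strand) for Ahsg, chr5:90460620-90460869 (plus strand) for Alb, chr16:22918132-22918381 (plus strand) for Fetub, chr4:63362199-63362448 (plus strand) for Orm2, chr12:103904951-103905200 (minus strand) for Serpina1c and chr12:103773634-103773883 (minus strand) for Serpina1d. Fetub has a further annotated start, not shown. Capitals mark matches to a C/EBP motif (TTGCNNAA) on either strand; the Fetub and Serpina1c windows hold none.
Ahsg: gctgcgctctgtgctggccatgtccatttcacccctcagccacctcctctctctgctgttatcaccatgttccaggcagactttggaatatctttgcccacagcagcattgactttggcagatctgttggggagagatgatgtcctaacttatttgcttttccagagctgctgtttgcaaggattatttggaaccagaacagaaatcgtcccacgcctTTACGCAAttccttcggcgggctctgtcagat
Alb: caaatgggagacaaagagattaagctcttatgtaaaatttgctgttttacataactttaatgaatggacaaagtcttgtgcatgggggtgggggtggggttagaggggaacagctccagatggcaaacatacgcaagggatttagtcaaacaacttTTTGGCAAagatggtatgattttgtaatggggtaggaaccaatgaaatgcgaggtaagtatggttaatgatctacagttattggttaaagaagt
Fetub: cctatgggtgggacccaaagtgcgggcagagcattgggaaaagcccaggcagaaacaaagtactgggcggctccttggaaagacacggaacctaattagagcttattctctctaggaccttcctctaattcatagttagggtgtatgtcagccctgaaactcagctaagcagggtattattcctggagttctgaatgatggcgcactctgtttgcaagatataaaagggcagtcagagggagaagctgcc
Orm2: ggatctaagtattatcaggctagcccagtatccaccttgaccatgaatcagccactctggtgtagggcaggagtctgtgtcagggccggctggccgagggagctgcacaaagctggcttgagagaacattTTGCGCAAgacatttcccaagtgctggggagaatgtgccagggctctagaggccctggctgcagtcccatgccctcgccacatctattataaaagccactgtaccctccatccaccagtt
Serpina1c: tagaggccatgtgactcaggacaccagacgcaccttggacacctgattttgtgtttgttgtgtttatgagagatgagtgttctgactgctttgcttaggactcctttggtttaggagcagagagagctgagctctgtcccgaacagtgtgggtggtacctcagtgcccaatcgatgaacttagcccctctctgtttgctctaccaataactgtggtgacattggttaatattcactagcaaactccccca
Serpina1d: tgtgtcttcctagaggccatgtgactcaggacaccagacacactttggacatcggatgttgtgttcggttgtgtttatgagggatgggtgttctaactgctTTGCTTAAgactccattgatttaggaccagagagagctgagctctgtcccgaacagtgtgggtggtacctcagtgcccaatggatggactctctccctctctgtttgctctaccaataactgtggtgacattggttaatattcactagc

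RefSeq promoters were found for 8 of the 10 genes. A C/EBP match lay in 5 of these 8 (Ahsg, Alb, Hpx, Orm2 and Serpina1d), and in 9.56% of all 32851 promoter windows of this length. A STAT motif (TTCNNNGAA, in 7.02% of all windows) and an HNF4 motif (CAAAGTCCA, in 0.38%) matched none of the members' windows. The C/EBP match of Orm2 reads the same on both strands, and no other marked match overlapped another. The Fetub window shown held none of the 3 motifs; a match or its absence describes letters only. Serpina1c and Serpina1d shared an identical run of 55 bases next to their starts, which the annotation places 11 bases apart relative to it. In gene order Ahsg and Fetub are direct neighbours on chromosome 16, followed by Hrg and Kng2. Serpina1c and Serpina1d lie in the Serpina1 cluster on chromosome 12, where Serpina3k sits among the other Serpina3 genes.

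All values are log2 signals relative to the 75th percentile of the same array, so 0 is that percentile and each unit is a doubling; they compare arrays for 1 gene, not genes with each other. Between 65.7% and 73.4% of spots were well above background on the 7 high-fat arrays, against 60.5% to 65.6% on the 8 low-fat arrays, and the number of arrays limits the precision. The high-fat arrays fill slides 1 and 2, scanned on another day than the low-fat slides 4 (LFD-UNX) and 3 (LFD-sham): diet and scan day, and surgery and slide on the low-fat diet, cannot be told apart. The 14 kidney markers measured averaged 3.66 to 4.11 on every array, and the tissue label held for each. On the low-fat diet 3 arrays stood apart in liver-type genes (LFD-UNX replicates 3 and 4, LFD-sham replicate 1). The main diet results of the members are given with and without them, a choice made after the values were seen. Diet results of the other gene lists are given with them only.

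**Figure D1:**
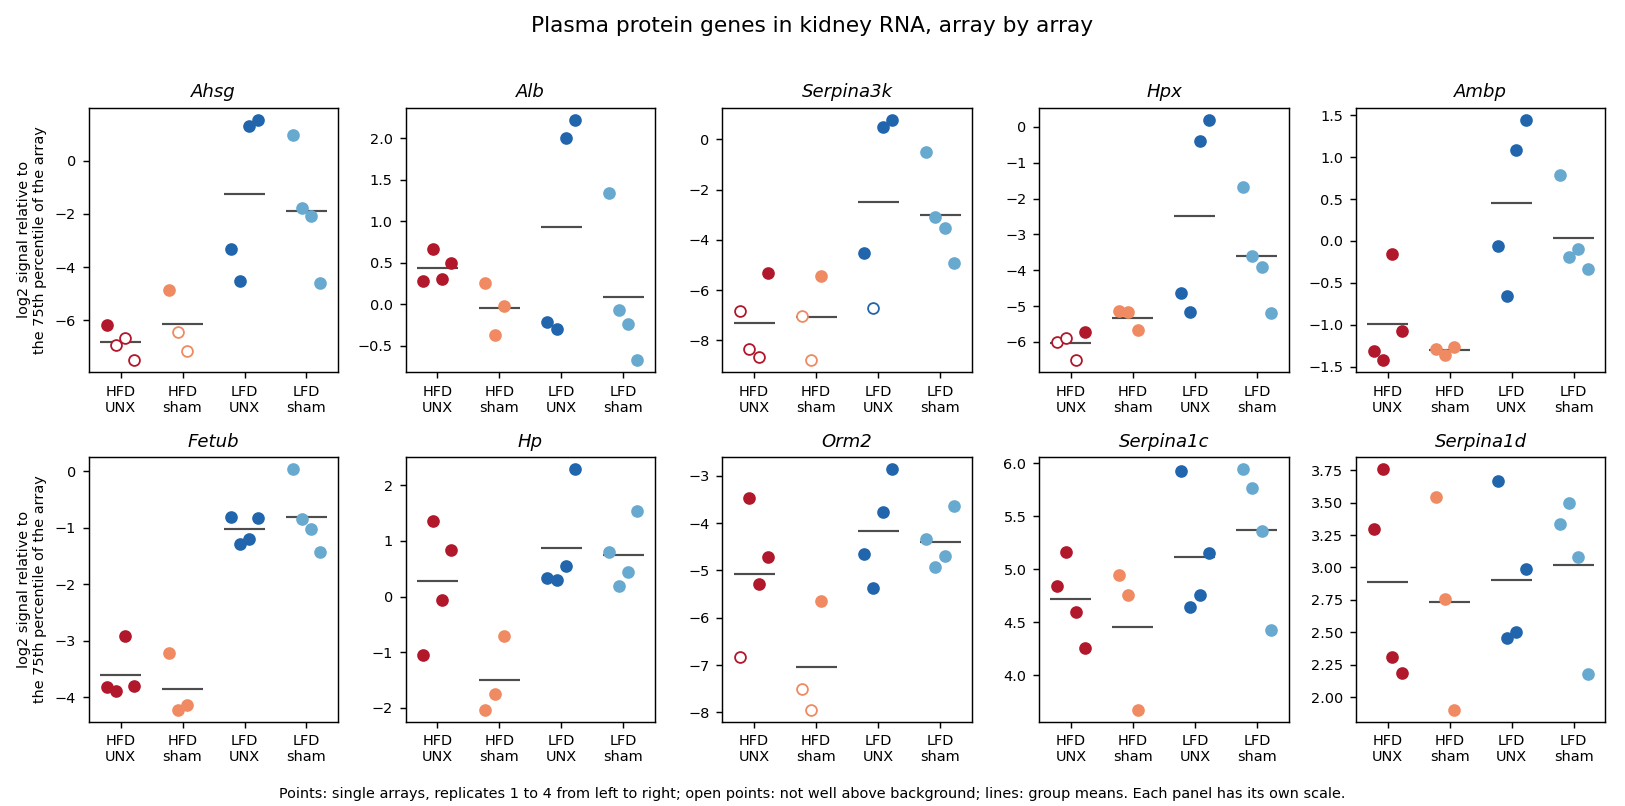
Log2 signal of each of the 10 genes (vertical axis, relative to the 75th percentile of the array) in the 4 groups (horizontal axis), 1 point per array in replicate order, open where not well above background, with a line at each group mean. The 3 low-fat arrays with high Ahsg, at 0.95 to 1.54, are also the high ones in Alb, Serpina3k, Hpx and Ambp, while Fetub lies between -4.22 and -2.93 on high-fat arrays and between -1.43 and 0.03 on low-fat arrays.

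Ahsg encodes fetuin-A, a plasma protein that binds calcium phosphate and limits calcification of soft tissue. Ahsg measured -6.16, -6.94, -6.65 and -7.49 on the HFD-UNX arrays and -4.86, -6.42 and -7.14 on the HFD-sham arrays, against -3.32, -4.52, 1.29 and 1.54 on the LFD-UNX arrays and 0.95, -1.78, -2.08 and -4.59 on the LFD-sham arrays. It was well above background on all 8 low-fat arrays but on only 2 of 7 high-fat arrays (HFD-UNX replicate 1 and HFD-sham replicate 1). The diets did not overlap, although the lowest low-fat array (-4.59) was close to the highest high-fat array (-4.86). Within the low-fat groups the spread was wide: the SD was 3.12 in LFD-UNX (n = 4) and 2.26 in LFD-sham kidneys (n = 4). The high-fat groups had an SD of 0.55 in HFD-UNX (n = 4) and 1.16 in HFD-sham kidneys (n = 3), in values largely at the detection limit.

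Alb encodes albumin, the main carrier and osmotic protein of plasma. Alb measured 0.28, 0.66, 0.30 and 0.49 on the HFD-UNX arrays and 0.25, -0.38 and -0.02 on the HFD-sham arrays, against -0.22, -0.30, 2.00 and 2.22 on the LFD-UNX arrays and 1.34, -0.07, -0.24 and -0.67 on the LFD-sham arrays. The same 3 low-fat arrays were highest, and the other 5 low-fat arrays lay between -0.67 and -0.07. The 4 HFD-UNX arrays lay above all of those 5, and 1 of 3 HFD-sham arrays (-0.38) lay among them. Alb thus shared the array pattern of Ahsg within the low-fat diet without being low on high-fat arrays.

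Correlation with the mean of Ahsg and Alb over the 8 low-fat arrays (for these 2 genes, with each other) was used to separate the members, with r of at least 0.8 called following. This held for 5 of 10: Ahsg with Alb (r = 0.94), Serpina3k (0.98), Hpx (0.99) and Ambp (0.96). It did not hold for Fetub (0.50), Orm2 (0.59), Hp (0.37), Serpina1c (0.21) or Serpina1d (0.16). Over the 7 high-fat arrays r with that mean was 0.58 for Fetub, -0.37 for Orm2 and -0.44 for Hp. It was 0.64 for Serpina1c and 0.73 for Serpina1d there, so the split describes the low-fat arrays only. The 8 arrays share a diet and a scan day, and the coefficients are a description. Without the 2 arrays farthest from the median (LFD-UNX replicates 3 and 4), the 5 followers had r between 0.915 and 0.997, and Fetub reached 0.96 over the remaining 6 arrays. Its lower r thus rests on those 2 arrays, where Ahsg was at its highest and Fetub was not.

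**Figure D2:**
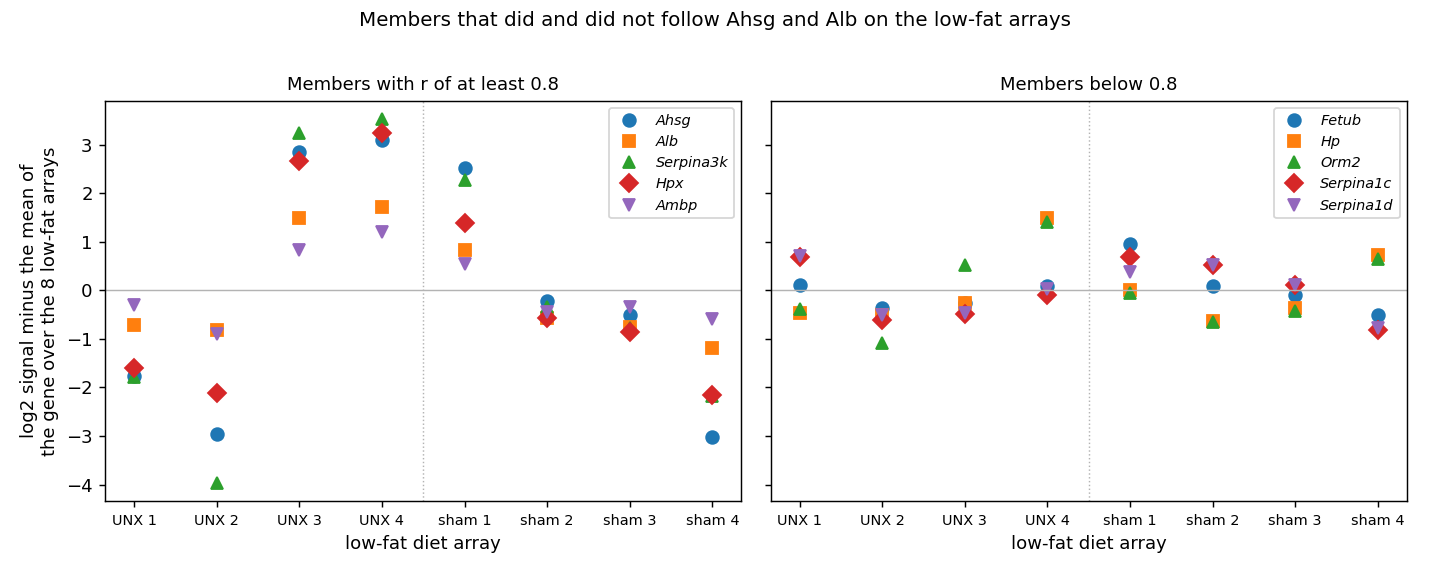
Log2 signal of each gene minus its own mean over the 8 low-fat arrays (vertical axis) on each low-fat array (horizontal axis, LFD-UNX left of LFD-sham), for the 5 genes with r of at least 0.8 on the left and the other 5 on the right. The left genes are all high on UNX 3, UNX 4 and sham 1; on the right Hp and Orm2 move as a pair, as do Serpina1c and Serpina1d.

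Serpina3k encodes a serine protease inhibitor of the antichymotrypsin family. Serpina3k measured -6.85, -8.35, -8.66 and -5.32 on the HFD-UNX arrays and -7.02, -8.79 and -5.45 on the HFD-sham arrays, against -4.54, -6.72, 0.50 and 0.78 on the LFD-UNX arrays and -0.48, -3.09, -3.51 and -4.93 on the LFD-sham arrays. High-fat arrays cleared the background in 2 of 7 cases, and low-fat arrays in all but LFD-UNX replicate 2. Hpx encodes hemopexin, which binds free haem in plasma. Hpx measured -6.00, -5.89, -6.50 and -5.73 on the HFD-UNX arrays and -5.13, -5.18 and -5.66 on the HFD-sham arrays, against -4.64, -5.16, -0.39 and 0.20 on the LFD-UNX arrays and -1.66, -3.61, -3.90 and -5.19 on the LFD-sham arrays. Hpx was highest on LFD-UNX replicates 3 and 4 and then LFD-sham replicate 1, and its lowest low-fat value overlapped the HFD-sham arrays.

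Ambp encodes the precursor of alpha-1-microglobulin and bikunin. Ambp measured -1.31, -1.42, -0.15 and -1.08 on the HFD-UNX arrays and -1.29, -1.35 and -1.26 on the HFD-sham arrays, against -0.06, -0.66, 1.08 and 1.44 on the LFD-UNX arrays and 0.78, -0.19, -0.09 and -0.33 on the LFD-sham arrays. It was well above background everywhere; all HFD-sham arrays lay below all LFD-sham arrays, whereas HFD-UNX replicate 3 (-0.15) lay inside the LFD-UNX range. Over the 7 high-fat arrays the 5 genes no longer moved together, with r against the mean of Ahsg and Alb between -0.20 and 0.24. Ahsg and Serpina3k were mostly not well above background there, and Hpx was on 1 of 4 HFD-UNX and 3 of 3 HFD-sham arrays. Alb and Ambp were well above background on every array, and their r with each other was 0.13 over the high-fat arrays. Why the genes parted was not tested.

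The genes nearest to Ahsg over all 15 arrays, of 15979 with a value on each, were chiefly the major urinary proteins, pheromone carriers made by the liver of male mice. Mup20 (r = 0.992), Mup18 (0.991), Mup3 (0.991), Mup19 (0.989), Mup17 (0.989) and Mup4 (0.984) were joined by Mug1 (0.985), which encodes the protease inhibitor murinoglobulin, and Uox (0.981), which encodes urate oxidase. Mug1 was well above background on 5 of the 15 arrays, all on the low-fat diet, and passed the filter through them. Its r over all arrays thus rests in part on values not well above background. Close copies within the Mup family may share probe signal, and single Mup genes are uncertain. Mup20 measured -7.86 to -5.57 on HFD-UNX arrays and -6.84 to -4.63 on HFD-sham arrays, against -4.72 to 2.02 on LFD-UNX arrays and -4.61 to 1.00 on LFD-sham arrays.

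On the low-fat arrays r with Ahsg was at least 0.8 for 9 of 9 tested Mup genes and 14 of 35 other liver-secreted proteins. So it was for 9 of 17 hepatocyte enzymes and transporters, 5 of 15 other clade A serpins and 3 of 16 other acute-phase genes. The share was 1.29% of the 16022 tested genes that are not members. Some genes are on more than 1 list. The hepatocyte genes included Arg1 and Cps1 of the urea cycle, the bile salt exporter Abcb11 and the uptake transporter Slco1b2. Arg1 measured -3.52 and -3.49 on LFD-UNX replicates 4 and 3 and -5.02 on LFD-sham replicate 1, the 3 arrays where it was well above background, and -8.06 to -5.97 on the other 5 low-fat arrays. Arg1 and Abcb11, well above background on those 3 arrays alone, passed the filter through them, and 6 of the 23 hepatocyte genes did not pass it, so nothing is read from these counts. Of the receptors and clearance genes 2 of 13 (Asgr1 and Asgr2, of the hepatic asialoglycoprotein receptor) and of the pancreatic genes 1 of 5 (Cel, a lipase) also reached that r. No regulator (0 of 19), kidney marker (0 of 14), adipocyte marker (0 of 13) or lymphocyte marker (0 of 11) reached that r. The summed linear level of 16 hepatocyte genes with a value on every array was dominated by the bile salt transporter Slc10a1 (mean log2 8.11, the next gene 1.76), and it was 237 to 329 on HFD-UNX and 147 to 444 on HFD-sham arrays, against 272 to 314 on LFD-UNX and 253 to 365 on LFD-sham arrays. Their mean log2 level was -2.74 to -2.50 on HFD-UNX and -3.09 to -2.52 on HFD-sham arrays, against -2.76 to -1.05 on LFD-UNX and -2.77 to -1.41 on LFD-sham arrays. Between diets 7 of 9 Mup genes passed lower in mice with 1 kidney and 0 in sham mice, beside 6.51% and 7.37% of all genes lower. Mup3 was well above background on low-fat arrays alone and passed the filter through them. Of the 17 hepatocyte genes 1 passed higher and 1 lower in mice with 1 kidney, and 0 in sham mice. Over all genes 14.2% and 13.9% passed either way, and nothing is read from these diet counts. The part of hepatocyte RNA in the members' values was not tested.

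Fetub encodes fetuin-B, best known for keeping the egg coat open to fertilisation by inhibiting ovastacin. Fetub measured -3.82, -3.88, -2.93 and -3.80 on the HFD-UNX arrays and -3.22, -4.22 and -4.14 on the HFD-sham arrays, against -0.82, -1.29, -1.20 and -0.83 on the LFD-UNX arrays and 0.03, -0.84, -1.02 and -1.43 on the LFD-sham arrays. Fetub was well above background on all 15 arrays, and the highest high-fat array (-2.93) lay below the lowest low-fat array (-1.43). On LFD-UNX replicates 3 and 4 it stayed at -1.20 and -0.83, beside -0.82 and -1.29 on replicates 1 and 2, where Ahsg differed by more than 4 log2 units between these pairs. On LFD-sham arrays both fetuins were highest on replicate 1 and lowest on replicate 4.

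The other cystatin-type neighbours of the fetuins on chromosome 16 did not pass between diets; Hrg and Kng2 come next in gene order, and Kng1 was named by the rule for its list. Kng1, which encodes kininogen, measured 5.40 to 5.94 on HFD-UNX and 5.13 to 5.63 on HFD-sham arrays, against 5.25 to 5.79 on LFD-UNX and 5.25 to 5.77 on LFD-sham arrays. Hrg, which encodes histidine-rich glycoprotein, ranged over -1.03 to -0.37 and -1.36 to -0.43 in the high-fat UNX and sham groups, against -0.59 to 0.42 and -1.06 to -0.23 in the low-fat UNX and sham groups. Kng2 ranged over 2.51 to 3.24 and 2.38 to 2.83 in the high-fat UNX and sham groups, against 2.13 to 2.89 and 2.10 to 2.62 in the low-fat UNX and sham groups. Of 8 tested cystatin-type genes, 0 passed between diets in either kind of mouse.

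The genes nearest to Fetub over the 15 arrays were Aarsd1 (r = 0.979), Top3a (0.977), Bicc1 (0.975), Ern1 (0.974), Ttc1 (0.972), Kmt5c (0.971), Cep89 (0.971) and Wwp2 (0.968). None is a plasma protein gene, and their diet differences ran from -1.18 to -0.53 log2, smaller than those of Fetub. Their r with Fetub lay between 0.68 and 0.90 within the high-fat arrays and between 0.25 and 0.85 within the low-fat arrays. Over all arrays, 7.02% of non-member genes reached an r of 0.8 with Fetub. Cdh16, a cadherin of tubule epithelium and the 1 kidney marker that passed between diets (log2 -0.49 in sham mice), was among them. So were 5 of 9 tested Mup genes, 2 of 35 other liver-secreted genes and 0 of 17 hepatocyte genes. Of the members, Ahsg (r = 0.85) and Ambp (0.82) reached that r with Fetub over all 15 arrays.

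Hp encodes haptoglobin, which captures free haemoglobin. Hp measured -1.05, 1.36, -0.06 and 0.83 on the HFD-UNX arrays and -2.03, -1.75 and -0.71 on the HFD-sham arrays, against 0.34, 0.30, 0.55 and 2.29 on the LFD-UNX arrays and 0.80, 0.18, 0.44 and 1.53 on the LFD-sham arrays. Hp was highest on LFD-UNX replicate 4 and lowest on HFD-sham replicates 1 and 2. HFD-sham arrays all lay below the LFD-sham arrays, whereas 2 of 4 HFD-UNX arrays lay below the low-fat range and 2 inside it.

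Orm2 encodes an orosomucoid, an acute-phase protein that binds drugs and lipids. Orm2 measured -6.84, -3.48, -5.28 and -4.72 on the HFD-UNX arrays and -7.51, -7.94 and -5.65 on the HFD-sham arrays, against -4.66, -5.37, -3.76 and -2.87 on the LFD-UNX arrays and -4.34, -4.93, -4.70 and -3.63 on the LFD-sham arrays. It was not well above background on HFD-UNX replicate 1 or on HFD-sham replicates 1 and 2. These were also the 3 lowest arrays for Hp. The r of Hp and Orm2 was 0.97 over all 15 arrays, 0.97 over the 7 high-fat and 0.89 over the 8 low-fat arrays.

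Of the 16022 tested genes that are not members, 6 (0.0374%) reached an r of 0.8 with Hp over all arrays, among them Orm1, the Orm2 neighbour and near-copy, the clade A serpin Serpina3c and Rbp4, the retinol carrier. Over the 7 high-fat arrays the mean of 12 adipocyte markers went with Hp (r = 0.88) and Orm2 (0.92), and over the 8 low-fat arrays less closely (0.36 and 0.02). That mean was -1.73 to 0.09 on HFD-UNX and -2.77 to -0.73 on HFD-sham arrays, against -2.59 to -0.29 on LFD-UNX and -1.53 to -0.03 on LFD-sham arrays. Adipoq, the adipocyte hormone adiponectin, was -2.58 on HFD-UNX replicate 1 and -3.89 and -2.72 on HFD-sham replicates 1 and 2, and -0.44 to 0.39 on the other 4 high-fat arrays. The summed level of the 12 markers was 16.8 to 32.6 on HFD-UNX and 14.3 to 50.7 on HFD-sham arrays, against 34.6 to 50.6 on LFD-UNX and 40.4 to 61.0 on LFD-sham arrays. Of all 13 adipocyte markers, 3 passed lower between diets in sham mice, among them Cfd (adipsin, -2.90) and Car3 (-1.64). In mice with 1 kidney 2 passed lower (Car3, -1.73, and the lipase Lpl, -1.64) and 1 higher (Lep, leptin, 2.59). Lep was not well above background on any LFD-UNX array and passed the filter through high-fat arrays. The size of its difference is therefore uncertain. The part of fat tissue in Hp and Orm2 was not tested, and in whole kidney fewer cells of a type and less RNA per cell cannot be told apart.

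**Figure D3:**
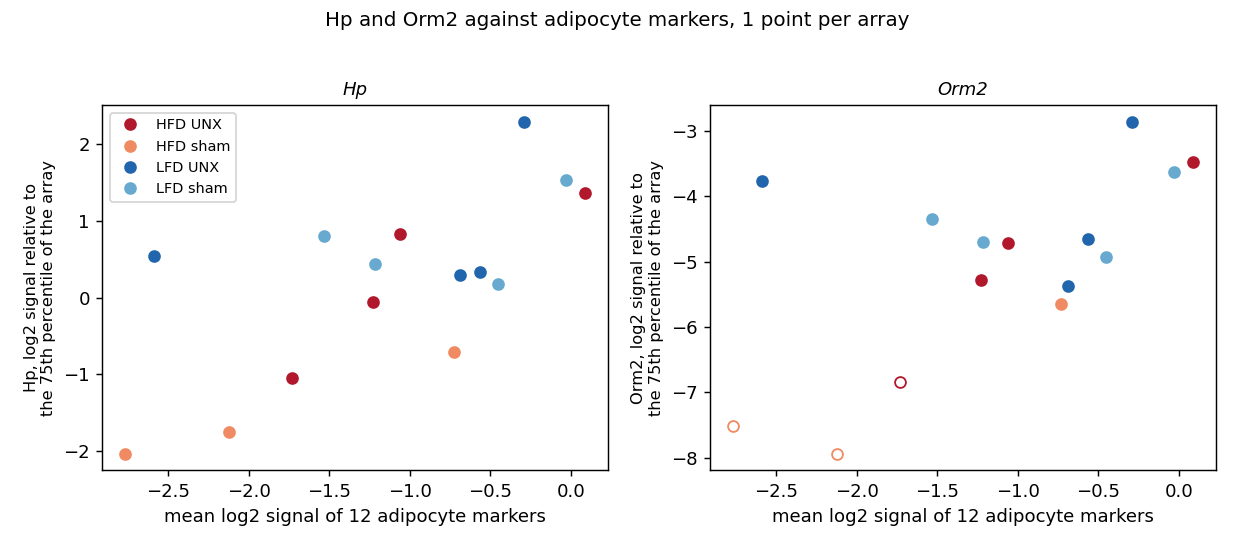
Log2 signal of Hp (left) and Orm2 (right) on the vertical axis against the mean log2 signal of 12 adipocyte markers on the horizontal axis, 1 point per array, open where not well above background. The high-fat points run along a line (r = 0.88 for Hp and 0.92 for Orm2), and LFD-UNX replicate 3, at -2.59 in the markers, lies off it.

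Serpina1c and Serpina1d encode copies of alpha-1-antitrypsin, the inhibitor of neutrophil elastase. Serpina1c measured 4.84, 5.17, 4.59 and 4.25 on the HFD-UNX arrays and 4.95, 4.75 and 3.67 on the HFD-sham arrays, against 5.93, 4.64, 4.75 and 5.16 on the LFD-UNX arrays and 5.94, 5.77, 5.36 and 4.43 on the LFD-sham arrays. All 4 groups overlapped, with the lowest value on HFD-sham replicate 3. Serpina1d ranged over 2.19 to 3.76 on HFD-UNX and 1.91 to 3.54 on HFD-sham arrays, against 2.46 to 3.67 on LFD-UNX and 2.18 to 3.50 on LFD-sham arrays. The copies went together (r = 0.84 over all arrays, 0.90 on high-fat and 0.98 on low-fat arrays), and Serpina1a and Serpina1e also reached 0.8 with Serpina1c. Probes of such close copies may read one another, so these are uncertain as separate genes; the second Serpina1d probe had r = 0.95 with the first.

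**Figure D4:**
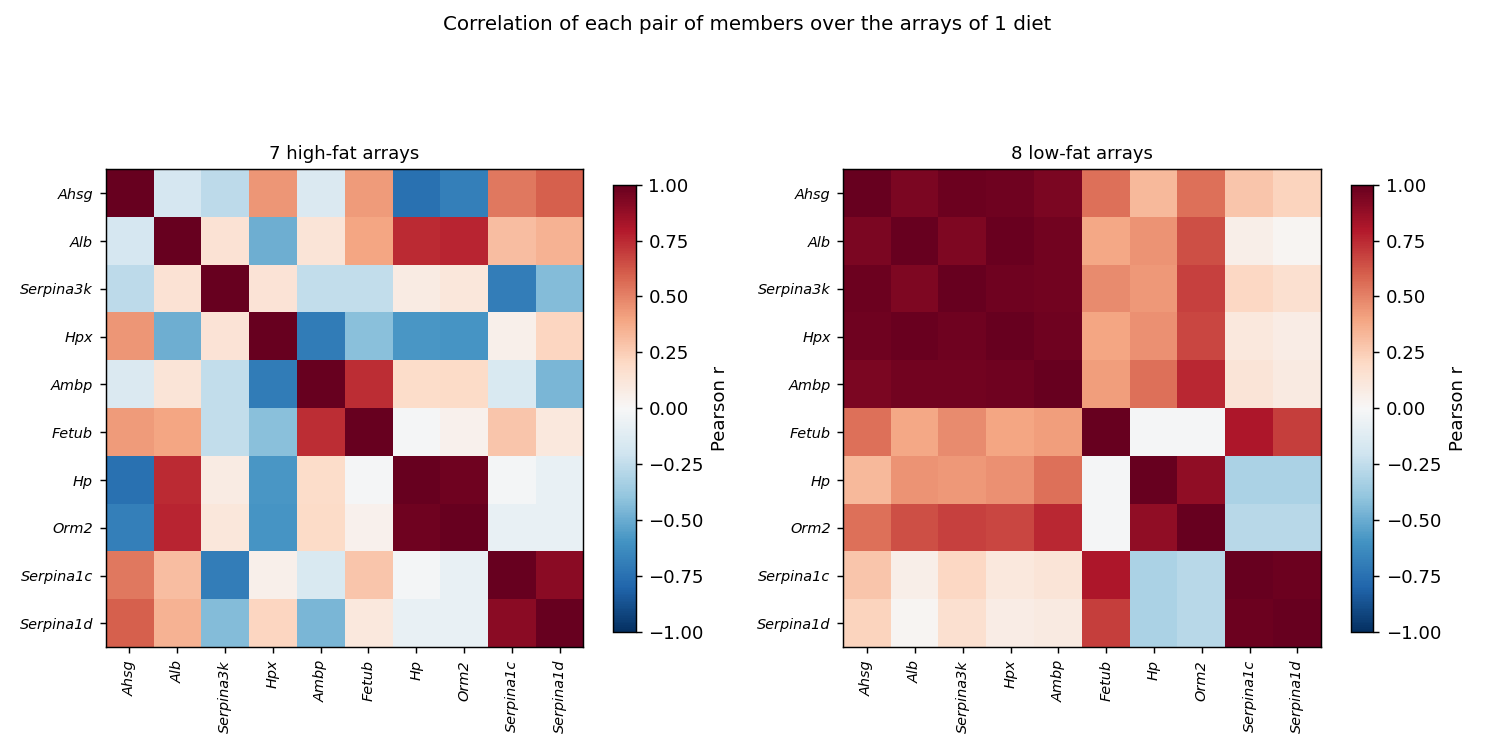
Pearson correlation of every pair of the 10 genes over the 7 high-fat arrays (left) and the 8 low-fat arrays (right), red for positive and blue for negative. The block of Ahsg, Alb, Serpina3k, Hpx and Ambp appears on the low-fat arrays only, where its pairs have r of at least 0.93; Hp with Orm2 and Serpina1c with Serpina1d are red in both.

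The comparison of diets in mice with 1 kidney asked how high-fat feeding altered the remnant kidney. All 10 genes were lower in HFD-UNX than in LFD-UNX kidneys, by a median of -1.18 log2, where the median of all genes was -0.01. Ahsg, Fetub, Serpina3k, Hpx and Ambp passed the threshold (limma, Benjamini-Hochberg adjusted p under 0.05), which is 5 of 10 beside 6.51% of all genes lower, 7.68% higher and 14.2% either way; since this contrast chose the genes, nothing is read from the share. Fetub differed by -2.57 ± 0.31 (SE), or 5.95-fold, and Ahsg by -5.56 ± 1.31. With values under the floor of each array set to that floor, Ahsg differed by -5.07 and Serpina3k by -3.80. Groups did not overlap for Ahsg, Fetub and Hpx, 3 of 10 beside 11.1% of all genes lower without overlap. Without LFD-UNX replicates 3 and 4 and LFD-sham replicate 1, Fetub differed by -2.55 and Ahsg by -2.89, 1 member passed (Fetub) instead of 5, as did 333 of 16032 genes instead of 2275. The members' median was then -0.60, and the difference of Alb was 0.69 in place of -0.49. With slide as a random block 0 of 10 members and 26 of 16032 genes passed, with Fetub at -2.57 (limma adjusted p = 0.0838). With normexp background correction 1 member, Fetub (-1.80), and 319 genes passed.

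In sham mice the same comparison covers kidneys that had been left with their partner. All 10 genes were again lower, in HFD-sham than in LFD-sham kidneys, by a median of -1.98 log2, where the median of all genes was -0.02. Fetub, Hp and Orm2 passed, 3 of 10 beside 7.37% of all genes lower, 6.49% higher and 13.9% either way, and again nothing is read from it. Fetub differed by -3.05 ± 0.34 (SE), or 8.26-fold, and Hp by -2.24 ± 0.59; Orm2 differed by -2.63, or by -1.77 with low values set to the floor. Ahsg differed by -4.27 ± 1.42 and did not pass (adjusted p = 0.0595 by limma). For 6 of 10 genes the groups did not overlap (Ahsg, Fetub, Serpina3k, Orm2, Hp and Ambp), beside 15.2% of all genes lower without overlap; the same contrast helped choose the genes. Without the 3 high low-fat arrays, Ahsg (-3.33) and Fetub (-2.76) passed and Hp (-2.22) and Orm2 (-2.61) did not, and the difference of Alb was 0.28 in place of -0.14. With slide as a random block 0 of 10 members and 14 of 16032 genes passed, with Fetub at -3.04 (limma adjusted p = 0.0695). With normexp 1 member, Fetub (-2.29), and 170 genes passed, instead of 2221 genes.

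**Figure D5:**
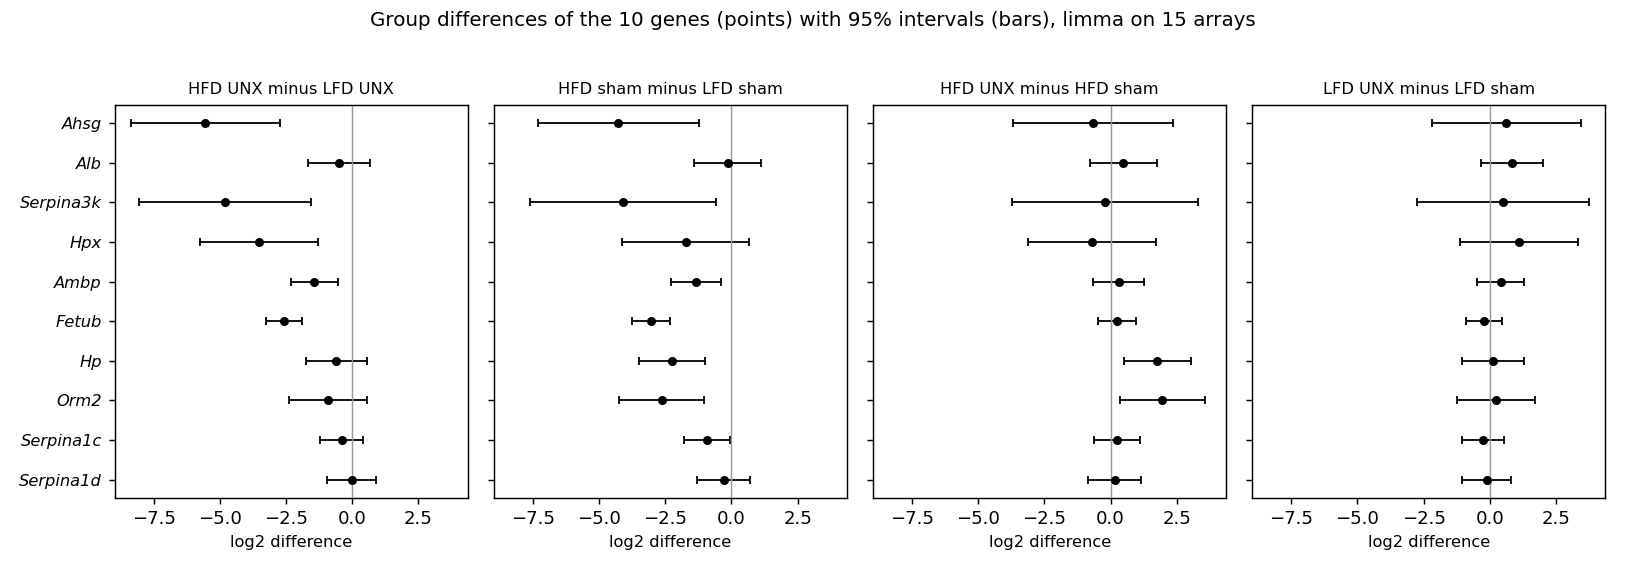
Log2 difference (horizontal axis) of each of the 10 genes (vertical axis) in 4 comparisons, as points with 95% confidence intervals from limma on 15 arrays. Both diet panels lie at or left of 0, with Fetub at -2.57 in UNX and -3.05 in sham mice, and the surgery panels straddle 0 except for Hp (1.77) and Orm2 (1.95) on the high-fat diet.

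Surgery was not used to choose the genes, and its comparisons were tested. The same groups entered the diet comparisons that chose the genes, so these tests are not independent of that choice. The low HFD-sham values of Hp and Orm2 enter both kinds of comparison. On the high-fat diet 0 of 10 members passed between HFD-UNX and HFD-sham kidneys, beside 0% of all genes (0% higher, 0% lower); 2 members and 742 of 16032 genes had an unadjusted p under 0.05. These 2 were the acute-phase pair: Hp was higher by 1.77 log2 (3.41-fold; 95% interval 0.52 to 3.03; limma adjusted p = 0.999) and Orm2 by 1.95 (0.35 to 3.56; adjusted p = 0.999), or by 1.18 with low values set to the floor. Hp differed by 2.19 within slide 1 and by 1.62 within slide 2, and Orm2 by 2.35 and 1.79, with 2 UNX and 1 or 2 sham arrays on each. Their group ranges overlapped, HFD-UNX replicate 1 lying inside the HFD-sham range of both. The adipocyte marker mean moved with them over these 7 arrays (r = 0.88 and 0.92, as above), and its part in the difference was not tested. Ranges did not overlap for 2 of 10 members, beside 2.92% of all genes: Alb was higher (0.48) and Hpx lower (-0.71) in HFD-UNX kidneys, neither passing (limma adjusted p = 0.999). The gaps were narrow, with nearest HFD-UNX and HFD-sham values of 0.28 and 0.25 for Alb and -5.73 and -5.66 for Hpx. Hpx was well above background on only 1 of 4 HFD-UNX arrays, and on 3 of 3 HFD-sham arrays.

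On the low-fat diet 0 of 10 members passed between LFD-UNX and LFD-sham kidneys, beside 0.00624% of all genes (0.00624% higher, 0% lower); 0 members and 519 of 16032 genes had an unadjusted p under 0.05. All 10 ranges overlapped, where 4.58% of all genes had ranges apart. The intervals are wide for the followers, from -2.19 to 3.43 log2 for Ahsg and from -1.14 to 3.33 for Hpx; each group held arrays with and without high levels. They are narrower for Fetub, from -0.89 to 0.45, and Serpina1c, from -1.06 to 0.55. The interaction is the effect of surgery on the high-fat diet minus that on the low-fat diet. It equals the difference between the diet comparisons that chose the genes, so for the members it is no independent test. In it 0 of 10 members passed beside 0% of all genes (0% higher, 0% lower). At an unadjusted p under 0.05 there were 0 members and 218 genes. The interaction was 1.72 for Orm2, 1.64 for Hp, -1.81 for Hpx and -0.72 for Serpina3k. Without the 3 high low-fat arrays it was 2.55 for Orm2, 2.17 for Hp, -0.05 for Hpx and 1.58 for Serpina3k.

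Around the members, other genes of the same pathways were counted on the same comparisons, the lists having been drawn up with earlier results known. Their counts stand beside the shares over all genes given above, 13.9% in sham mice and 14.2% in mice with 1 kidney, and a list near that share shows nothing of its own. Of 16 other acute-phase genes tested, 1 passed higher and 2 lower in sham mice: Apcs, serum amyloid P (1.74), and the metallothioneins Mt2 (-1.10) and Mt1 (-0.90). In mice with 1 kidney 1 passed higher, Hamp2, a hepcidin (1.45). Of 35 other liver-secreted genes, 1 passed higher and 2 lower in sham mice, and 1 higher and 4 lower in mice with 1 kidney. Mug1 was among these 4 and passed the filter through low-fat arrays alone. Ttr, the thyroid hormone carrier transthyretin, was higher on the high-fat diet in both, by 1.73 and 1.53 log2, and F9, coagulation factor IX, was lower in both, by -1.35 and -0.74.

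Among 19 tested regulators, Stat3, the transcription factor of the acute-phase response, was lower on the high-fat diet in sham mice (-0.63; limma adjusted p = 0.0134) and in mice with 1 kidney (-0.52; adjusted p = 0.0197). Cebpa was 0.99 higher in HFD-UNX than LFD-UNX kidneys (limma adjusted p = 0.0250), and Nr3c1, the glucocorticoid receptor, was lower there (-0.41; adjusted p = 0.0463). Of 13 receptors and clearance genes, only the haem oxygenase Hmox1 passed, lower in HFD-sham than LFD-sham kidneys (-0.83). Of 15 other clade A serpins, Serpina3h was higher on the high-fat diet in sham mice (1.48) and in mice with 1 kidney (1.87), where Serpina3b also passed (1.30), and Serpina4-ps1 was lower in sham mice (-3.89; well above background on 4 of 15 arrays).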

How the data were processed

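Kidney RNA (100 ng per sample) was hybridised to 1-colour Cy3 Agilent arrays. The deposited intensity values come from the authors' scans. They were extracted with Agilent Feature Extraction, version 10.7 per the submitters' processing notes, while the file headers name release 10.7.3.1; the headers also give background subtraction within each array and no step between arrays. The log2 of the processed signal minus the 75th percentile of each array over non-control probes was taken here from these deposited signals. Spots marked as outliers (74 to 273 on an array) were dropped, and 0 spots were saturated. Probes were named through RefSeq accessions against a GRCm38.p6 gene table that served for names alone, since the design of the array cites mm9; 27234 of 39429 probes matched. A gene needed a probe well above background on at least 3 arrays and took its brightest probe. A probe on several spots counted as well above background where any spot kept was, so its mean can lie under the floor. The floor of an array is the lowest signal of a kept spot well above background, -7.19 to -5.22.

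Groups were compared with limma 3.58.1 (statmod 1.5.0, R 4.3.3), 1 mean per group over 15 arrays, two-sided, with Benjamini-Hochberg adjustment over 16032 genes; the script was tested on simulated data. The members and lists were chosen with earlier results of these data known. Besides the members, named genes were up to 4 per list that passed (or the 2 brightest), and the 8 most like Ahsg and Fetub; Hrg, Kng2, Adipoq, Abcb11, Slco1b2, Cps1, Asgr1, Asgr2, Cel, Slc10a1, Orm1, Serpina3c, Rbp4, Serpina1a, Serpina1e, Saa1, Saa2, Saa3 and Lcn2 were named after their values were seen. P-values measure the spread between these arrays, 1 mouse each. Same-numbered arrays of the 2 high-fat groups deviated together (r = 0.44, 0.12 and 0.33), partly sharing slides. The differences between those groups given above are unpaired. As an alternative, a block on the numbers within those groups gave 1.58 for Hp and 1.83 for Orm2 and changed no member's call there. A block on the numbers over all groups was a further alternative. The normexp alternative used median spot signals, since the planned mean signals are not in the files used here.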

Additional observations from a re-analysis of the deposited data

Results flagged for a closer look

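Of 30 groups of 4 arrays tested for an array far from the others (Dixon's criterion, which flags about 1.5 of 30 by chance), 2 had one. Fetub measured -2.93 on HFD-UNX replicate 3, against -3.88 to -3.80 on the other 3 arrays of that group, and that array was also the highest of its group in Ambp (-0.15). Hp measured 2.29 on LFD-UNX replicate 4, against 0.30 to 0.55 on the other 3 arrays, and Orm2 was highest there too (-2.87). The cause was not tested in either case.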

How the results depend on the processing

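Over quantile normalization, the deposited value table, the mean of all probes and values set to the floor, the members passing between diets numbered 2 to 3 in sham mice and 4 to 5 in mice with 1 kidney, and 5 genes followed Ahsg and Alb. Normexp background correction left 1 in each diet comparison (Fetub both times), with a median of -1.10 in sham mice, and called 170 and 319 of 16032 genes in sham and 1-kidney mice, against 2221 and 2275. Slide as a random block left 0 in each, and called 14 and 26 genes. Without the filter on dim probes 5 passed in sham mice. In mice with 1 kidney, 2 passed with slides 1 and 2 blocked as fixed terms, 2 with only the compared groups fitted, and 1 without the 3 low-fat arrays with the highest Ahsg. With the replicate number as a block (pairing), 3 passed there and 2 in sham mice; no surgery or interaction call changed. Leaving out 1 array gave 1 to 3 in sham mice (1 without LFD-sham replicate 1 or HFD-sham replicate 1 or 2) and 2 to 5 in mice with 1 kidney (2 without LFD-UNX replicate 3 or 4 or HFD-UNX replicate 1 or 2), and 5 to 6 followers; Fetub passed each time. Members passing for surgery or the interaction were 0 under every setting run. Apart from the values set to the floor, the cause of these moves was not tested. Ahsg, Serpina3k, Hpx and Orm2 are limited by signal over background on high-fat arrays.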

Other observations

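The serum amyloid genes Saa1 and Saa2, acute-phase apolipoproteins that were not members, were high on the array where Hp was highest. Saa2 measured -0.14 on LFD-UNX replicate 4 and -7.94 to -6.08 on the other LFD-UNX arrays; Saa1 measured 0.02 there and -2.29 to -2.0 on the others of its group. Saa3 (-7.38) and Lcn2, the lipocalin (-1.25), were not high on that array. These genes were picked after their values were seen, and no test was run.

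Leptin, the adipocyte hormone gene Lep, was well above background on 6 of 15 arrays, none of them an LFD-UNX array. It measured -7.04, -2.98, -4.64 and -4.18 on the HFD-UNX arrays, -7.86, -6.87 and -6.71 on the HFD-sham arrays, -7.94 to -6.49 on the LFD-UNX arrays and -7.87 to -4.65 on the LFD-sham arrays. Within HFD-UNX kidneys, replicate 1 was thus low in Lep, Hp and Orm2, and replicate 2 was high in all 3. Of the marker lists of other tissues, 0 of 5 pancreatic genes passed between diets in either kind of mouse. Of 4 adrenal genes 1 passed higher and 1 lower in sham mice, and 0 in mice with 1 kidney. Of 4 muscle genes 1 passed higher and 1 lower in sham mice, and 1 higher in mice with 1 kidney. Of 7 erythroid genes 0 passed in sham mice and 1 lower in mice with 1 kidney. Over all genes 13.9% and 14.2% passed in sham and 1-kidney mice, and nothing is read from such short lists. Lymphocyte markers (11 tested) passed higher in 2 genes in sham mice and 5 in mice with 1 kidney, beside 6.49% and 7.68% of all genes. Cd79b was among the markers passing (1.18 and 1.15 log2). With slide as a random block only 14 and 26 of all 16032 genes passed in sham and 1-kidney mice. None of the 11 markers (0 of 11) reached an r of 0.8 with Ahsg, Hp or Fetub.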
